A study of Homo sapiens with 12 samples.

Results

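The genes described here are the integrin subunits and laminin chains, picked by their symbols alone: all names of the forms ITGA, ITGB or LAM with a subunit or chain number or letter. The rule gives 38 of the 43236 genes in the count tables, namely 18 integrin alpha subunits, 8 integrin beta subunits and 12 laminin chains. Their RNA was measured by RNA-seq in HOS-MNNG cells (also written MNNG/HOS), a human osteosarcoma line made from HOS cells by chemical transformation. Cells received the solvent DMSO or 300 nM NXP800, a small oral molecule that activates the stress kinase GCN2, for 6 h or 24 h. Each of the 4 groups has 3 libraries, 12 in all, and each NXP800 group is set against the DMSO group of its own time. The sample titles write HOS, and the labels name no deletion or transgene. The methods describe the repeats of the study in general as independent experiments, and the labels do not name the cultures behind these libraries, so a p-value measures the spread between these libraries.

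Integrins are surface receptors made of an alpha and a beta subunit that tie the extracellular matrix to the actin skeleton. The pairing decides the ligand: some alpha subunits bind the RGD motif of fibronectin and vitronectin, some bind collagens, some bind laminins, and a further group is known from leukocytes. Laminins are trimers of an alpha, a beta and a gamma chain and form the core of basement membranes. In osteosarcoma, integrins carry attachment, spreading and survival signals from the bone matrix.

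Libraries held between 30810614 and 31947656 counts on genes, which were scaled by TMM and given as CPM, counts per 1000000 counts of the scaled library. Reads that the counter assigned to no feature made up 6.66 to 8.14% at 6 h and 2.73 to 3.67% at 24 h, ranges without overlap. Levels compared between the times therefore cannot be told apart from a difference between these sets of libraries. The same holds for differences of response between the times, though each response is taken within its own set. Among the markers of the labelled cell type, VIM averaged between 3770 and 5370 CPM over the 4 groups and COL1A1 between 159 and 465 CPM. ALPL and COL1A2, both markers of the osteoblast lineage, stayed at or below a group mean of 0.302 CPM. At 24 h VIM, COL1A1, COL6A1, SPARC, FN1, TWIST1 and CDH11 were lower with NXP800, RUNX2 was higher, and COL6A2 and CDH2 did not pass. On the log2 scale VIM fell by 0.48 and SPARC by 2.02, while RUNX2 rose by 0.36. Keratins KRT8 and KRT18 were high, with group means between 553 and 892 CPM, although CDH1, KRT19 and GRHL2 did not exceed a group mean of 0.102 CPM. At 24 h both keratins were lower with NXP800 (log2 fold change -0.65 and -0.43), while EPCAM, at 5.78 CPM with DMSO and 10.1 CPM with NXP800, was higher by 0.81 (adjusted p = 4.85e-06). ESRP1, an epithelial splicing regulator, stayed at or below a group mean of 1.74 CPM and was higher at both times (log2 fold change 2.54 and 2.35). The 8 endothelial markers summed to 2.95 to 6.05 CPM and the 6 muscle or platelet markers to 1.41 to 3.95 CPM, and the haematopoietic markers are given beside ITGB2. In bulk RNA, fewer cells of a type and less RNA per cell cannot be told apart.

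Of the 38 members, 32 had enough counts to be tested in edgeR's quasi-likelihood model of the 15979 genes kept. Never above single digits were ITGA9 (highest count in any library 6), ITGAD (2), ITGAL (9), ITGB6 (6), ITGB7 (3) and LAMB4 (7). Among these, ITGAL, the alpha subunit of the leukocyte integrin LFA-1, had 2, 9 and 4 counts in the DMSO 24 h libraries and 0 in all NXP800 24 h libraries, at least 4.95-fold lower when a floor of 3 counts over the group is used. This floor covers counting error only.

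At 6 h the tested members moved in both directions, and at 24 h mostly downward. With NXP800, 7 members rose at 6 h and 6 fell at a Benjamini-Hochberg adjusted p below 0.05, that is 21.9% and 18.8% of those tested, while of all tested genes 25% rose and 27.8% fell. At 24 h, 6 members rose (18.8%, against 27.5% of all genes) and 18 fell (56.2%, against 28.6% of all genes). The median log2 fold change of the tested members was -0.11 at 6 h and -0.32 at 24 h, beside -0.046 and -0.003 over all tested genes. With the replicate number as a block, the 6 h call count was 21 in place of 13, with 12 members lower in place of 6. Its share of 65.6% of the members stands beside 62.3% of all tested genes under the block, and the share lower, 37.5%, beside 33.4%. Beyond 2-fold at the same threshold were 3 of 32 members at 6 h (9.38%, against 11.2% of all genes) and 7 at 24 h (21.9%, against 14%). These 8 genes are all of low abundance, with mean levels over all libraries between 0.0593 and 1.96 RPKM, the CPM per kilobase of exon.

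**Figure D1:**
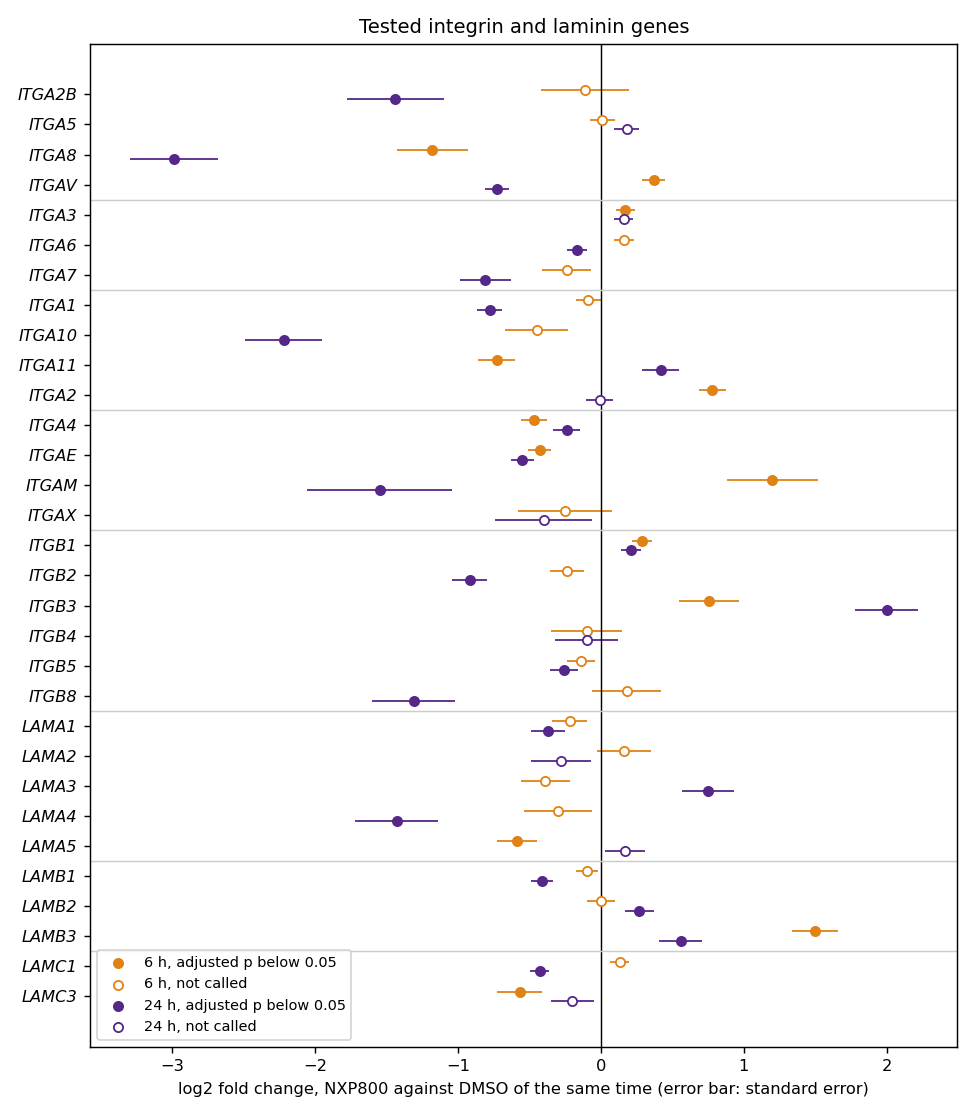
Log2 fold change (NXP800 against DMSO of the same time, x axis) of 31 of the 32 tested members (y axis, grouped by role and parted by grey lines), with the standard error as bar and filled points where the adjusted p was below 0.05. Most filled points of 24 h lie left of 0, and the extremes at that time are ITGA8 at -2.99 and ITGB3 at 2.00.

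Sorted by time course, 3 genes rose at both times (ITGB1, ITGB3 and LAMB3) and 3 fell at both (ITGA4, ITGA8 and ITGAE). ITGAV and ITGAM rose at 6 h and fell at 24 h, and ITGA11 fell at 6 h and rose at 24 h. A further 13 members passed the test only as falls at 24 h and 2, LAMA3 and LAMB2, only as rises at 24 h. Calls at 6 h alone were the rises of ITGA2 and ITGA3 and the falls of LAMA5 and LAMC3. A call at a single time does not show that the times differ. In the direct test of the difference (edgeR), ITGA2 and LAMA5 passed. ITGA3 (-0.01, log2, adjusted p = 0.944) and LAMC3 (0.37, adjusted p = 0.249) did not. The members that passed in this test are named further below. The members called at neither time were ITGA5, ITGAX, ITGB4 and LAMA2.

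Per kilobase of exon, the most abundant members over all libraries were ITGB1 with 48.3 RPKM, LAMC1 with 46.2 RPKM, ITGA3 with 44.2 RPKM and ITGA2 with 35.5 RPKM. The order changed between groups: ITGB1 had the highest mean at 6 h (52.7 RPKM with DMSO and 64.2 RPKM with NXP800), LAMC1 with DMSO at 24 h (53.2 RPKM) and ITGA3 with NXP800 at 24 h (55.7 RPKM). ITGB5 followed with 27.2 RPKM, ITGA6 with 25.7 RPKM and LAMB1 with 22.9 RPKM. These 7 genes encode the common beta subunit, a beta partner of the alpha V subunit, laminin and collagen receptor alpha subunits, and a beta and a gamma chain of laminin. Gene lengths are those of all annotated exons together, which lowers the RPKM of genes with many long isoforms, such as ITGAV with 19336 bases.

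Among the alpha subunits that bind the RGD motif, ITGAV, ITGA8 and ITGA2B were lower with NXP800 at 24 h, and ITGA5 was called at neither time. ITGAV encodes the alpha V subunit, the partner of several beta subunits in receptors for vitronectin and fibronectin. At 6 h, ITGAV was at 201, 192 and 178 CPM with DMSO and at 244, 267 and 225 CPM with NXP800. All NXP800 libraries lay above all DMSO libraries, a log2 fold change of 0.37 ± 0.081 (SE, n = 3 a group, edgeR adjusted p = 0.00129). At 24 h the order was turned: DMSO libraries had 113, 129 and 119 CPM and NXP800 libraries 65.8, 79.9 and 72.3 CPM, again without overlap. The log2 fold change was -0.73 ± 0.083 (SE, edgeR adjusted p = 1.83e-06), and the difference between the responses was -1.09 ± 0.12 (adjusted p = 7.06e-06). ITGAV thus had the smallest adjusted p of all members in the difference.

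ITGA5, the alpha subunit of the classical fibronectin receptor, was at 80.3, 79.8 and 91.6 CPM with DMSO and 76.9, 87.0 and 89.5 CPM with NXP800 at 6 h. By 24 h the libraries had 116, 95 and 108 CPM with DMSO and 127, 107 and 126 CPM with NXP800. The groups overlapped at both times. Its log2 fold change was 0.01 ± 0.089 (SE) at 6 h, with an adjusted p of 0.932, and 0.18 ± 0.088 (SE) at 24 h, with an adjusted p of 0.0991 that was 0.00429 with the replicate block. Without DMSO 24 h replicate 1 or NXP800 24 h replicate 2 the 24 h value also passed, with adjusted p of 0.0408 and 0.018. The same was so with library size as the only scaling.

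ITGA8, whose product binds nephronectin and is known from kidney development, had the deepest fall of all members. It was at 6.84, 8.70 and 6.02 CPM with DMSO and 3.41, 3.33 and 2.76 CPM with NXP800 at 6 h, a log2 fold change of -1.18 ± 0.25 (SE, edgeR adjusted p = 0.000747). The 24 h values were 2.71, 6.46 and 6.45 CPM with DMSO and 0.726, 0.690 and 0.542 CPM with NXP800. The first DMSO library stood below the others, yet above every NXP800 library. The fall of 2.99 on the log2 scale (SE 0.31, adjusted p = 7.04e-07) was deeper than at 6 h, with a difference of -1.81 ± 0.41 (SE, adjusted p = 0.0041). By counts alone, 461 counts over the DMSO 24 h libraries stood against 61 over the NXP800 24 h libraries, a ratio of 0.134 with a 95% counting interval of 0.101 to 0.175. Such an interval uses library totals without TMM. It covers counting error only and leaves out the spread between libraries, where the DMSO libraries had 81, 192 and 188 counts.

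ITGA2B, the alpha subunit of the platelet fibrinogen receptor, was low throughout. Its 6 h libraries had 0.919, 0.568 and 1.18 CPM with DMSO and 0.890, 1.01 and 0.583 CPM with NXP800, which overlap (log2 fold change -0.11 ± 0.31, SE, adjusted p = 0.792). At 24 h the DMSO libraries had 1.14, 1.55 and 0.824 CPM and the NXP800 libraries 0.429, 0.345 and 0.511 CPM, without overlap. The fall of 1.44 on the log2 scale (SE 0.34) had an adjusted p of 0.00177. Of the platelet markers, GP9 was at 0 in all libraries, PF4 at or below a group mean of 0.0413 CPM and GP1BA at or below 0.103 CPM.

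The laminin-binding alpha subunits ITGA3 and ITGA6, both abundant, changed by small amounts, and ITGA7 fell at 24 h. ITGA3 had 328, 330 and 326 CPM with DMSO and 351, 397 and 362 CPM with NXP800 at 6 h. After 24 h, ITGA3 stood at 495, 475 and 496 CPM with DMSO and 502, 574 and 563 CPM with NXP800. NXP800 libraries were the higher ones at both times, by a log2 fold change of 0.17 ± 0.067 (SE, adjusted p = 0.0395) at 6 h and 0.16 ± 0.067 (SE, adjusted p = 0.0511) at 24 h. The 6 h call was lost without each DMSO 6 h library in turn and without NXP800 6 h replicate 2 or 3 (adjusted p between 0.0576 and 0.192), and with no filter on low counts (0.0732). The 24 h value passed with the replicate block (adjusted p = 0.0168) and without NXP800 6 h replicate 2 or NXP800 24 h replicate 1 (0.0493 and 0.0101). It also passed with DESeq2 size factors, with library size as the only scaling, with at least 10 counts in every library and in DESeq2's Wald test.

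ITGA6 encodes the alpha subunit that joins the beta 4 subunit in hemidesmosomes. Its 6 h values were 165, 181 and 169 CPM with DMSO and 178, 213 and 185 CPM with NXP800. They overlap, with a log2 fold change of 0.16 ± 0.07 (SE) whose adjusted p was 0.0621, or 0.00595 with the replicate block. At 24 h, 172, 162 and 177 CPM with DMSO stood above 153, 146 and 155 CPM with NXP800, a log2 fold change of -0.17 ± 0.07 (SE, adjusted p = 0.0485). This call was lost in 8 of the 12 fits that leave out a library (adjusted p between 0.056 and 0.213), and with library size as the only scaling the value was -0.08 (adjusted p = 0.322). It was also lost with DESeq2 size factors, in DESeq2's Wald test and with only the 24 h libraries in the fit. At 6 h the value passed without DMSO 6 h replicate 2, NXP800 6 h replicate 1 or NXP800 24 h replicate 2 (adjusted p 0.0478, 0.0307 and 0.027). The 6 h value also passed with DESeq2 size factors, with library size as the only scaling, in DESeq2's Wald test and with only the 6 h libraries in the fit. ITGA7, a laminin receptor of muscle, did not pass at 6 h (-0.24) and fell by 0.81 on the log2 scale at 24 h.

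Of the collagen-binding alpha subunits, ITGA2 rose at 6 h alone, ITGA11 fell at 6 h and rose at 24 h, and ITGA1 and ITGA10 fell at 24 h. ITGA2, the alpha subunit of a collagen I receptor, was at 234, 222 and 242 CPM with DMSO and at 357, 435 and 405 CPM with NXP800 at 6 h. No library of the groups overlapped, and the log2 fold change was 0.78 ± 0.095 (SE, adjusted p = 4.64e-06). By 24 h its values were 263, 245 and 229 CPM with DMSO and 258, 268 and 204 CPM with NXP800, ranges that overlap. The log2 fold change was then -0.01 ± 0.095 (SE, adjusted p = 0.911), with a difference between the times of -0.79 ± 0.13 (SE, adjusted p = 0.000488).

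ITGA11, known as a collagen receptor of fibroblasts, went the other way. At 6 h it was at 24.8, 23.2 and 19.3 CPM with DMSO and 14.7, 13.8 and 12 CPM with NXP800, without overlap (log2 fold change -0.73 ± 0.13, SE, adjusted p = 0.000234). At 24 h the values were 27.9, 20.3 and 21.3 CPM with DMSO and 35.3, 30.0 and 27.6 CPM with NXP800. The lowest NXP800 library and the highest DMSO library changed places, and the log2 fold change was 0.42 ± 0.13 (SE, adjusted p = 0.0111). This rise did not pass without DMSO 24 h replicate 2 (adjusted p = 0.0612), DMSO 24 h replicate 3 (0.0505) or NXP800 24 h replicate 1 (0.0645). The difference of 1.15 ± 0.18 (SE) between the responses had an adjusted p of 0.000305.

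ITGA10, a collagen receptor of cartilage, had 13.2, 18.1 and 20.9 CPM with DMSO and 11.1, 14.2 and 13.0 CPM with NXP800 at 6 h. These ranges overlap, and the log2 fold change of -0.45 ± 0.22 (SE) had an adjusted p of 0.103, or 0.0012 with the replicate block. It also passed without DMSO 6 h replicate 1, DMSO 24 h replicate 1 or DMSO 24 h replicate 2 (adjusted p 0.041, 0.0431 and 0.0428), and with only the 6 h libraries in the fit. At 24 h the DMSO libraries had 6.52, 14.9 and 9.75 CPM and the NXP800 libraries 2.11, 2.82 and 1.72 CPM. Even the lowest DMSO library lay above all NXP800 libraries, with a log2 fold change of -2.22 ± 0.27 (SE, adjusted p = 3.72e-06). ITGA1, a receptor for collagen IV, did not pass at 6 h (log2 fold change -0.09) and fell by 0.78 at 24 h on the log2 scale. Of the ITGA1 exon length, 13.2% is shared with other annotated genes, with the largest overlap from ITGA2-AS1 on the opposite strand. The strand setting of the authors' counting is not given in the sources used here.

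**Figure D2:**
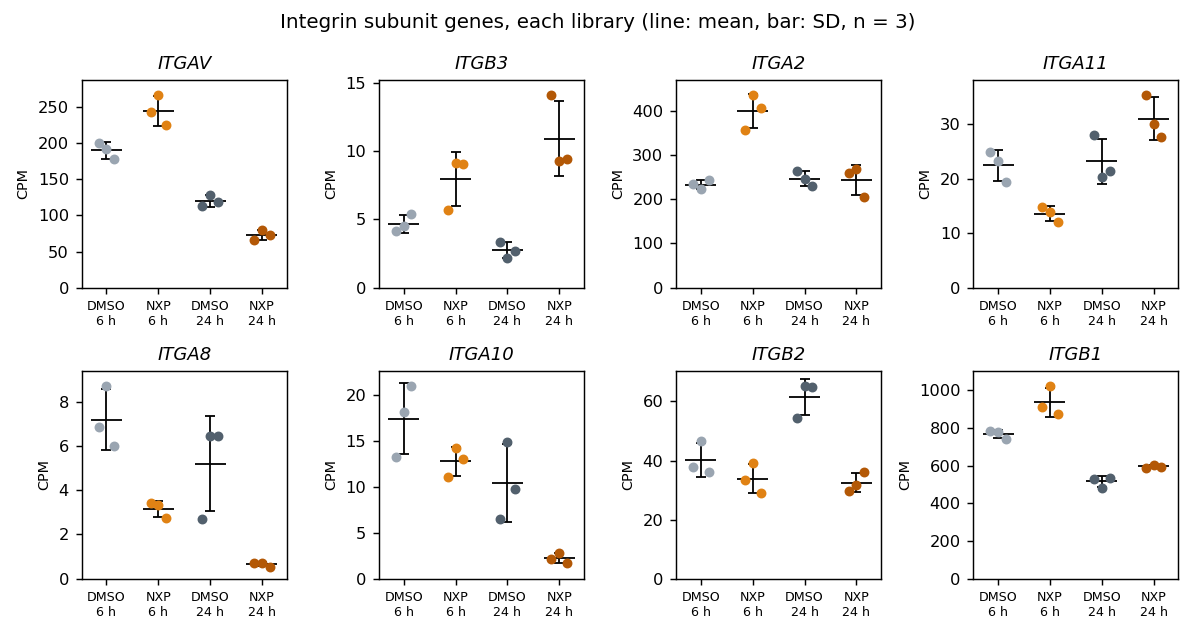
CPM (y axis, from 0) of 8 integrin genes in each of the 12 libraries, by group (x axis; NXP stands for NXP800), with a line for the mean and a bar for the SD of 3 libraries. ITGAV rises at 6 h and falls at 24 h, ITGA2 is raised at 6 h, and ITGB3 reaches its highest level in the NXP800 24 h libraries, at 9.25 to 14.1 CPM.

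Of the alpha 4, alpha 9 and leukocyte alpha subunits, ITGAE and ITGA4 were the most abundant and both fell at both times. ITGAE, the partner of beta 7 in the E-cadherin receptor of lymphocytes, was at 32.4, 31.2 and 33.0 CPM with DMSO and 26.6, 22.2 and 23.1 CPM with NXP800 at 6 h. After 24 h, 40.2, 42.7 and 38.8 CPM were found with DMSO and 29.0, 28.3 and 26.1 CPM with NXP800. NXP800 libraries were below the DMSO libraries at both times, with log2 fold changes of -0.43 ± 0.079 (SE, adjusted p = 0.000275) and -0.55 ± 0.078 (SE, adjusted p = 1.98e-05). Annotated genes other than ITGAE overlap 7.65% of its exon length, HASPIN on the opposite strand the most. The partner ITGB7 never exceeded 3 counts.

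ITGA4, the alpha subunit of the VCAM1 receptor, had 27.8, 22.4 and 25.1 CPM with DMSO and 17.8, 18.3 and 18.1 CPM with NXP800 at 6 h (log2 fold change -0.47 ± 0.092, SE, adjusted p = 0.000429). By 24 h, ITGA4 had 17.7, 19.8 and 19.4 CPM with DMSO and 15.2, 15.2 and 17.6 CPM with NXP800 (log2 fold change -0.24 ± 0.094, SE, adjusted p = 0.0361). The groups were apart at both times, at 24 h by a narrow margin. The 24 h call was lost without DMSO 24 h replicate 2 or 3 or NXP800 24 h replicate 1 or 2 (adjusted p between 0.0871 and 0.158). With library size as the only scaling the 24 h value was -0.15 (adjusted p = 0.187), and it did not pass in DESeq2's Wald test or with only the 24 h libraries. Other annotated genes together share 26.4% of the ITGA4 exon length, and the largest overlap is with CERKL on the opposite strand.

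ITGAM, the alpha subunit of the myeloid integrin Mac-1, had 7, 8 and 16 counts in the DMSO 6 h libraries and 22, 24 and 27 counts in the NXP800 6 h libraries. At 24 h there were 9, 9 and 5 counts with DMSO and 3, 2 and 3 counts with NXP800. The groups did not overlap at either time, though at a handful of counts. The rise at 6 h was 1.20 ± 0.32 (log2, SE, adjusted p = 0.00471) and the fall at 24 h -1.55 ± 0.51 (log2, SE, adjusted p = 0.0153), while the summed counts give a ratio of 2.34 (95% counting interval 1.52 to 3.69) at 6 h and of 0.351 (0.136 to 0.814) at 24 h. The fall did not pass in DESeq2's Wald test (adjusted p = 0.0607), nor without DMSO 24 h replicate 1 or 2 or NXP800 24 h replicate 2 (adjusted p 0.0514, 0.0529 and 0.0636). ITGAX, another myeloid alpha subunit, had log2 fold changes of -0.25 and -0.40 that did not pass.

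Of the beta subunits, ITGB1 and ITGB3 rose at both times, and ITGB2, ITGB5 and ITGB8 fell at 24 h. ITGB1, the common partner of the collagen, laminin and fibronectin receptor alpha subunits, was at 782, 780 and 741 CPM with DMSO and 911, 1020 and 872 CPM with NXP800 at 6 h. After 24 h, ITGB1 was at 530, 482 and 535 CPM with DMSO and 589, 604 and 593 CPM with NXP800. NXP800 libraries were the higher at each time, with log2 fold changes of 0.29 ± 0.07 (SE, adjusted p = 0.00272) and 0.21 ± 0.07 (SE, adjusted p = 0.0194). Without DMSO 24 h replicate 2, the lowest library, the 24 h value was 0.16 (adjusted p = 0.0981).

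ITGB3, the partner of ITGAV in the vitronectin receptor and of ITGA2B on platelets, had 4.12, 4.51 and 5.41 CPM with DMSO and 5.68, 9.09 and 9.06 CPM with NXP800 at 6 h. By 24 h, ITGB3 had 3.31, 2.15 and 2.71 CPM with DMSO and 14.1, 9.25 and 9.41 CPM with NXP800. The groups were apart at both times, with 2.73 ± 0.58 CPM (SD, n = 3) against 10.9 ± 2.75 CPM (SD, n = 3) at 24 h. The log2 fold change was 0.76 ± 0.21 (SE, adjusted p = 0.00534) at 6 h and 2.00 ± 0.22 (SE, adjusted p = 1.07e-06) at 24 h, and the difference of 1.24 ± 0.3 (SE) had an adjusted p of 0.00663. In GENCODE 33.2% of the ITGB3 exon length is shared with other annotated genes, with the largest overlap from ENSG00000259753 on the same strand. Both partners named here were lower with NXP800 at 24 h, when ITGB3 was higher.

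ITGB5, a further partner of ITGAV, was at 172, 184 and 147 CPM with DMSO and 144, 171 and 141 CPM with NXP800 at 6 h. After 24 h, ITGB5 was at 184, 225 and 230 CPM with DMSO and 164, 176 and 192 CPM with NXP800. The ranges overlap at both times. This gave a log2 fold change of -0.14 ± 0.1 (SE, adjusted p = 0.259, or 0.025 with the replicate block) at 6 h and -0.26 ± 0.1 (SE, adjusted p = 0.0354) at 24 h. The 24 h call was lost without DMSO 24 h replicate 2 or 3 or NXP800 24 h replicate 1 or 2 (adjusted p between 0.102 and 0.136), and with library size as the only scaling (-0.17, adjusted p = 0.161).

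ITGB8, a receptor subunit for latent TGF-beta, was low. Its 6 h values were 1.39, 0.820 and 1.00 CPM with DMSO and 1.29, 1.32 and 1.04 CPM with NXP800, overlapping ranges with a log2 fold change of 0.18 ± 0.24 (SE, adjusted p = 0.543). At 24 h, 1.07, 0.975 and 0.755 CPM with DMSO stood above 0.462, 0.314 and 0.351 CPM with NXP800. This is a log2 fold change of -1.31 ± 0.29 (SE, adjusted p = 0.00123).

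ITGB2, the beta subunit of the leukocyte integrins, is singled out after its values were seen, since the summed level of the haematopoietic markers was lower beside it. It was at 54.5, 65.1 and 64.8 CPM in the DMSO 24 h libraries and 29.6, 31.8 and 36.1 CPM in the NXP800 24 h libraries, without overlap, and fell by 0.92 on the log2 scale (SE 0.12, adjusted p = 5.7e-06). At 6 h the log2 fold change of -0.24 ± 0.12 (SE) had an adjusted p of 0.0909, or 0.00106 with the replicate block, and passed without DMSO 6 h replicate 3 or NXP800 6 h replicate 2 (0.0497 and 0.0241). The 10 haematopoietic markers summed to 7.5 to 9.36 CPM with DMSO and 4.33 to 4.70 CPM with NXP800 at 6 h, and to 10.2 to 11.3 CPM and 2.79 to 4.00 CPM at 24 h. Only 4 of these markers were abundant enough to be tested, of which 2 fell and 1 rose at 24 h. CORO1A averaged 6.89 CPM with DMSO and 1.66 CPM with NXP800 at 24 h, and CD14 2.81 CPM and 0.668 CPM, with log2 fold changes of -2.05 and -2.07. SPI1, a myeloid transcription factor gene, rose by 1.58 (log2, adjusted p = 0.0229) from a mean of 0.168 CPM to 0.513 CPM, and CSF1R had a log2 fold change of -0.73 that did not pass (adjusted p = 0.107). Their part in the fall of ITGB2 was not tested. MS4A1 and HBB were at 0 in every library, CD3E at or below a group mean of 0.0102 CPM and PTPRC, the pan-leukocyte marker, at or below 0.0614 CPM. Overlaps with other annotated genes cover 4.15% of the ITGB2 exon length, the largest from ITGB2-AS1 on the opposite strand. ITGB4, the hemidesmosome subunit, had log2 fold changes of -0.10 at both times that did not pass.

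The laminin alpha chains were led by LAMA5, which was lower with NXP800 at 6 h. LAMA5, the alpha chain of most adult epithelial and endothelial laminins, was at 65.8, 61.8 and 79.9 CPM with DMSO and 44.6, 44.6 and 48.8 CPM with NXP800, without overlap (log2 fold change -0.59 ± 0.14, SE, adjusted p = 0.00248). By 24 h, LAMA5 was at 95.3, 141 and 110 CPM with DMSO and 106, 156 and 128 CPM with NXP800. These ranges overlap, though in each replicate number the NXP800 library was the higher. The log2 fold change was 0.17 ± 0.14 (SE, adjusted p = 0.31, or 0.00658 with the replicate block), and without DMSO 24 h replicate 2 it was 0.34 (adjusted p = 0.0482). The difference between the responses, 0.76 ± 0.2 (SE), had an adjusted p of 0.0105.

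LAMA1, the alpha chain of the embryonic laminin, had 20.7, 19.8 and 23.1 CPM with DMSO and 17.1, 19.2 and 18.5 CPM with NXP800 at 6 h. After 24 h, LAMA1 had 17.6, 21.3 and 26.3 CPM with DMSO and 15.5, 17.0 and 17.8 CPM with NXP800. The groups were apart at 6 h and overlapped at 24 h. Their log2 fold change was -0.22 ± 0.12 (SE, adjusted p = 0.136, or 0.023 with the replicate block) at 6 h and -0.37 ± 0.12 (SE, adjusted p = 0.014) at 24 h. Without DMSO 24 h replicate 3, the highest library, the 24 h value was -0.22 (adjusted p = 0.111), and without NXP800 24 h replicate 1 it was -0.32 (adjusted p = 0.0572). With library size as the only scaling it was -0.28 (adjusted p = 0.0648).

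LAMA4, the alpha chain of vessel and mesenchymal laminins, was at 3.83, 4.54 and 3.16 CPM with DMSO and 4.11, 3.00 and 2.27 CPM with NXP800 at 6 h (log2 fold change -0.30 ± 0.24, SE, adjusted p = 0.311). By 24 h, LAMA4 was at 1.87, 2.52 and 2.99 CPM with DMSO and 0.759, 1.29 and 0.670 CPM with NXP800. The groups overlapped at 6 h and not at 24 h, when the log2 fold change was -1.43 ± 0.29 (SE, adjusted p = 0.000492). LAMA2, the muscle alpha chain, had log2 fold changes of 0.16 and -0.28 that did not pass.

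LAMA3 and LAMB3 encode an alpha and a beta chain that occur together in the laminin that anchors epithelia at hemidesmosomes. LAMA3, whose library values are added here after they were seen, was at 5.20, 4.32 and 5.65 CPM with DMSO and 3.38, 4.07 and 4.11 CPM with NXP800 at 6 h (log2 fold change -0.39 ± 0.17, SE, adjusted p = 0.0648, or 0.0194 with the replicate block). At 24 h it was at 2.88, 2.76 and 2.51 CPM with DMSO and 3.70, 5.89 and 4.08 CPM with NXP800. The groups stood apart in opposite orders, and the 24 h log2 fold change was 0.75 ± 0.18 (SE, adjusted p = 0.0021). The 6 h value passed without DMSO 6 h replicate 2, NXP800 24 h replicate 1 or NXP800 24 h replicate 2 (adjusted p 0.0399, 0.0499 and 0.0425). The difference between the responses was 1.14 ± 0.25 (SE, adjusted p = 0.00318).

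LAMB3 had the largest rise of the members at 6 h. It was at 4.06, 4.98 and 5.04 CPM with DMSO and 13.0, 16.6 and 10.3 CPM with NXP800, that is 4.69 ± 0.553 CPM against 13.3 ± 3.18 CPM (SD, n = 3). After 24 h, LAMB3 was at 8.40, 6.96 and 7.00 CPM with DMSO and 11.8, 10.3 and 11 CPM with NXP800. All NXP800 libraries lay above all DMSO libraries at both times. The log2 fold change was 1.5 ± 0.16 (SE, adjusted p = 8.26e-07) at 6 h and 0.56 ± 0.15 (SE, adjusted p = 0.00492) at 24 h, smaller by 0.94 ± 0.22 (log2, SE, adjusted p = 0.00498).

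**Figure D3:**
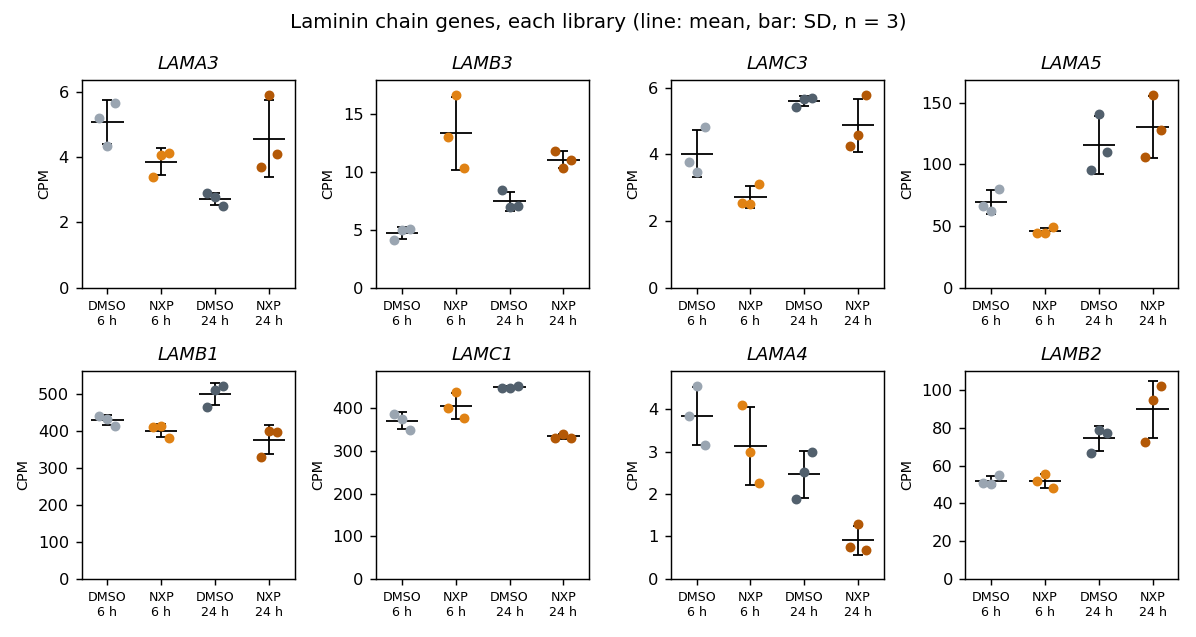
CPM (y axis, from 0) of 8 laminin chain genes in each of the 12 libraries, by group (x axis; NXP stands for NXP800), with a line for the mean and a bar for the SD of 3 libraries. In the upper row LAMB3 is raised at both times and LAMA3 at 24 h, and in the lower row LAMB1 and LAMC1 are lower in the NXP800 24 h libraries.

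The abundant chains LAMB1 and LAMC1, which build most laminins of mesenchymal cells, were lower at 24 h. LAMB1 had 440, 433 and 413 CPM with DMSO and 410, 412 and 379 CPM with NXP800 at 6 h (log2 fold change -0.10 ± 0.076, SE, adjusted p = 0.298). At 24 h it had 465, 511 and 520 CPM with DMSO and 330, 399 and 397 CPM with NXP800. The groups were narrowly apart at 6 h and clearly so at 24 h, when the log2 fold change was -0.41 ± 0.077 (SE, adjusted p = 0.000257). LAMC1 had 388, 376 and 349 CPM with DMSO and 402, 439 and 377 CPM with NXP800 at 6 h (log2 fold change 0.13 ± 0.065, SE, adjusted p = 0.104, or 0.0272 with the replicate block). At 24 h its DMSO libraries held 448, 449 and 452 CPM and its NXP800 libraries 331, 341 and 331 CPM. The spread within a group was small against the distance between the groups at 24 h, and the log2 fold change was -0.43 ± 0.065 (SE, adjusted p = 3.63e-05). The 6 h value of LAMC1 passed without NXP800 6 h replicate 3 (adjusted p = 0.0443) or NXP800 24 h replicate 2 (0.0393), and with only the 6 h libraries in the fit.

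LAMB2, the beta chain of kidney and synaptic laminins, was at 50.9, 50.1 and 54.8 CPM with DMSO and 51.7, 55.7 and 48.3 CPM with NXP800 at 6 h (log2 fold change 0.00 ± 0.1, SE, adjusted p = 0.999). At 24 h it was at 66.8, 79.1 and 77.3 CPM with DMSO and 72.7, 94.6 and 102 CPM with NXP800. The groups overlapped at both times, and the 24 h log2 fold change was 0.27 ± 0.1 (SE, adjusted p = 0.0335). This call was lost without DMSO 24 h replicate 1 (adjusted p = 0.143), NXP800 24 h replicate 2 (0.0769) or NXP800 24 h replicate 3 (0.178), and with only the 24 h libraries in the fit (0.0523). LAMC3, a further gamma chain, fell at 6 h (log2 fold change -0.57, adjusted p = 0.008, or 0.0553 without DMSO 6 h replicate 3) and did not pass at 24 h (-0.20).

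The sums per kilobase of each class are given as descriptions, with no test. The integrin alpha genes together held 124, 125 and 126 RPKM with DMSO and 142, 164 and 151 RPKM with NXP800 at 6 h, and 145, 139 and 141 RPKM against 138, 143 and 137 RPKM at 24 h. Their sum was higher in all NXP800 libraries at 6 h and overlapped at 24 h. The laminin gamma genes, almost wholly LAMC1, held 54.8 ± 0.317 RPKM (SD, n = 3) with DMSO and 40.7 ± 0.629 RPKM with NXP800 at 24 h, and the laminin alpha genes 7.03 ± 0.77 RPKM and 5.10 ± 0.144 RPKM (SD, n = 3) at 6 h. ITGA2 made up 23.5 ± 0.888% (SD, n = 3) of the alpha sum with DMSO and 33.1 ± 1.15% with NXP800 at 6 h. ITGA3 made up 35.2 ± 0.606% and 40 ± 2.53% (SD, n = 3) at 24 h. Within the beta genes at 24 h, ITGB1 held 44.4 ± 3.61% with DMSO and 53.2 ± 1.84% with NXP800 (SD, n = 3), while ITGB5 held 40.8 ± 2.92% and 35.4 ± 1.52%. Among the laminin beta genes LAMB3 held 3.19 ± 0.401% with DMSO and 8.89 ± 1.56% with NXP800 at 6 h (SD, n = 3). LAMB1 held 68.3 ± 0.423% and 56.7 ± 1.17% at 24 h (SD, n = 3).

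**Figure D4:**
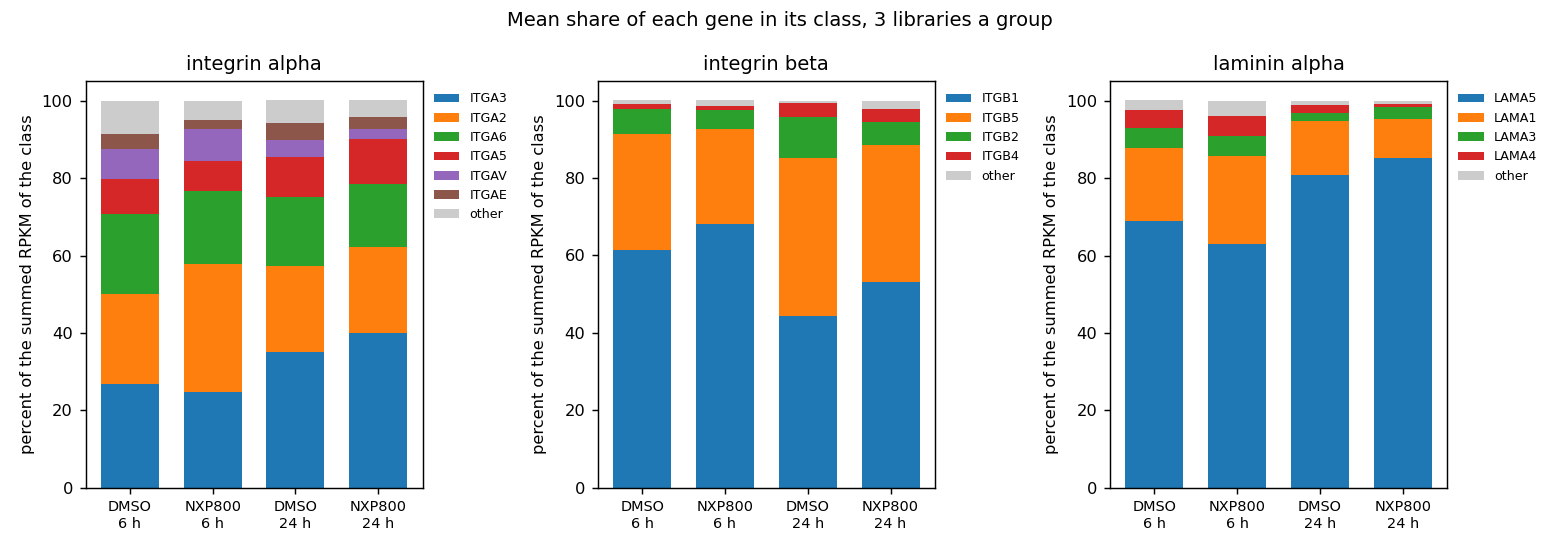
Mean share of each gene in the summed RPKM of its class (y axis, percent) for integrin alpha, integrin beta and laminin alpha genes, in each group of 3 libraries (x axis). ITGA2 widens from 23.5% to 33.1% of the alpha genes with NXP800 at 6 h, and LAMA5 takes between 63.1% and 85.3% of the laminin alpha genes in every group.

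Tested directly, the response at 24 h differed from that at 6 h for 18 of the 32 members, 4 upward and 14 downward (12.5% and 43.8%, against 12% and 13.8% of all tested genes). The median difference was -0.32 on the log2 scale for the members and -0.002 for all tested genes. Upward were ITGA11, ITGB3, LAMA3 and LAMA5. Downward were ITGA1, ITGA2, ITGA2B, ITGA6, ITGA8, ITGA10, ITGAM, ITGAV, ITGB2, ITGB8, LAMA4, LAMB1, LAMB3 and LAMC1. With the replicate block ITGA7 (-0.57, adjusted p = 0.00699) and LAMB2 (0.26, 0.0273) passed as well. The calls of ITGA2B, ITGA6, LAMA4 and LAMB1 depend on single libraries: they were lost in 9, 3, 8 and 8 of the 12 fits that leave out 1 library, with the adjusted p between 0.05 and 0.122, between 0.0523 and 0.0649, between 0.0534 and 0.104, and between 0.0627 and 0.0976.

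Of the focal adhesion complex, 39 of 40 listed genes were tested. The list holds proteins that link integrin tails to actin, and also kinases, adaptors, integrin regulators and membrane proteins. At 6 h 8 rose and 15 fell (20.5% and 38.5%, against 25% and 27.8% of all tested genes), and at 24 h 10 rose and 16 fell (25.6% and 41%, against 27.5% and 28.6%), with medians of -0.01 and -0.02 on the log2 scale. FERMT2, which encodes the integrin activator kindlin-2, rose by 0.63 ± 0.08 (log2, SE) at 6 h. PTK2B, a focal adhesion kinase relative, rose by 1.40 ± 0.24 at 24 h, at the low means of 0.676 CPM with DMSO and 1.79 CPM with NXP800. The tensin gene TNS2 fell by 1.57 at 6 h and by 1.69 at 24 h on the log2 scale (SE 0.12 and 0.11), and KANK2 fell by 1.17 (SE 0.078) at 6 h. TNS4 fell by 2.21 (SE 0.39) at 24 h, also from a low mean, 1.99 CPM with DMSO against 0.427 CPM with NXP800.

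Among other integrin ligands, mostly of the matrix, 14 of 19 were tested. The list also holds ICAM1 and VCAM1, ligands on the cell surface. At 6 h 4 rose and 4 fell (28.6% each way, against 25% and 27.8% of all tested genes), with a median of -0.07, and at 24 h 4 rose and 9 fell (28.6% and 64.3%, against 27.5% and 28.6%), with a median of -0.71 (log2). Tenascin, encoded by TNC, rose at both times, by 0.92 ± 0.11 and 1.23 ± 0.12 (log2, SE), ICAM1 rose by 1.01 ± 0.14 at 6 h, and THBS2 rose by 0.59 ± 0.19 at 24 h. THBS1, the gene of thrombospondin, fell by 0.83 (SE 0.13) at 6 h and by 2.34 (SE 0.14) at 24 h. CCN2, a matricellular growth factor gene, fell by 1.05 and by 1.84 (log2, SE 0.17 at both times). Fibronectin, the ligand of several RGD receptors and chosen here after its values were seen, followed the order of ITGAV. FN1 had 380, 255 and 346 CPM with DMSO and 496, 426 and 469 CPM with NXP800 at 6 h, and 271, 288 and 240 CPM against 179, 153 and 132 CPM at 24 h, with log2 fold changes of 0.50 ± 0.13 and -0.78 ± 0.13 (SE, adjusted p = 0.00335 and 7.84e-05).

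The last list holds basement membrane partners of laminin and non-integrin laminin receptors, with 21 of 22 genes tested. At 6 h 3 rose and 10 fell (14.3% and 47.6%, against 25% and 27.8% of all tested genes), and at 24 h 2 rose and 14 fell (9.52% and 66.7%, against 27.5% and 28.6%), with medians of -0.25 and -0.62 (log2). With the replicate block, 6 of the 21 rose at 6 h and 4 at 24 h, where 28.9% and 32% of all tested genes rose. NTN4, a laminin-related netrin gene, rose by 1.97 ± 0.16 and 2.00 ± 0.17 (log2, SE), the heparan sulfate carrier SDC4 rose by 0.84 ± 0.11 at 6 h, and AGRN rose by 0.34 ± 0.078 at 24 h. The syndecan SDC1 fell by 1.54 (SE 0.09) and the dystroglycan gene DAG1 fell by 1.35 (SE 0.072) at 6 h. At 24 h SPARC fell by 2.02 (SE 0.13) and NID2, a nidogen that bridges laminin and collagen IV, fell by 1.82 (SE 0.14).

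**Figure D5:**
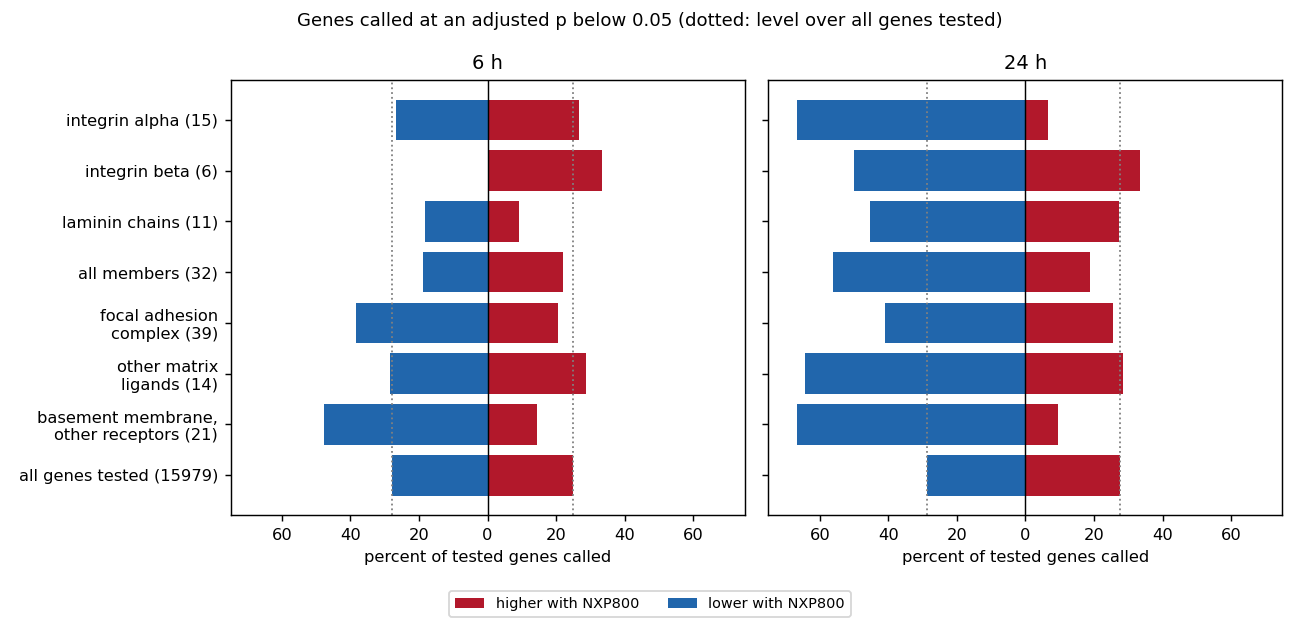
Percent of tested genes called higher (right of 0) or lower (left of 0) with NXP800 at 6 h and 24 h for the integrin and laminin classes, the 3 other lists and all tested genes, with the number tested in brackets (y axis) and dotted lines at the level of all genes. At 24 h 66.7% of the integrin alpha genes and 45.5% of the laminin chain genes were lower, against 28.6% of all genes.

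Sequences upstream of the start site are given for 4 members: LAMB3 and LAMA3 as the chains of the hemidesmosome laminin that were higher at 24 h, and ITGA8 and ITGA10 as the deepest falls. They are the 250 bases before the RefSeq start on build GRCh38.p14, written 5′ to 3′ in the direction of the gene, with matches to the motifs named below in capitals. LAMB3 is at chr1:209652426-209652675 on the minus strand, and LAMA3 at chr18:23872770-23873019 on the plus strand, a start site inside the gene span of chr18:23689453-23955066. ITGA8 is at chr10:15719923-15720172 and ITGA10 at chr1:145910051-145910300, both on the minus strand.
LAMB3: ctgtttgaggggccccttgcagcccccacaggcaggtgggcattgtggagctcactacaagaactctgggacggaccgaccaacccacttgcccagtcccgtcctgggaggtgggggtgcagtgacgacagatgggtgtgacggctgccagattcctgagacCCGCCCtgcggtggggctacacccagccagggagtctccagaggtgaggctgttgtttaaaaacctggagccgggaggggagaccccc
LAMA3: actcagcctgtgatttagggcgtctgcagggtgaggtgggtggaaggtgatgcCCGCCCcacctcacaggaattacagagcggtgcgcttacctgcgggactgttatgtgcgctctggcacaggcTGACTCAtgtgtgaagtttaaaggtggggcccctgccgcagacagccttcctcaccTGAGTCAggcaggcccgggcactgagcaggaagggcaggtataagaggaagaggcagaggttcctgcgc
ITGA8: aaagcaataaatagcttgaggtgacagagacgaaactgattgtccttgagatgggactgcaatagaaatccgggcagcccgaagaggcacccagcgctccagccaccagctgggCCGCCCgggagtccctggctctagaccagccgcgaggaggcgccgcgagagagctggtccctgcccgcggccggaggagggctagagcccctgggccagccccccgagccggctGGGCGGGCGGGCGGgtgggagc
ITGA10: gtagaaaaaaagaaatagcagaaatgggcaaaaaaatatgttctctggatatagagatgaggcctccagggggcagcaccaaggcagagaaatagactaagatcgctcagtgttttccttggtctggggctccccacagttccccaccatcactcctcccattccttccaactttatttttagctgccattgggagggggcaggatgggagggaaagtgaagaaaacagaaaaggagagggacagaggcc

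The RefSeq table held a promoter, from 250 bases before to 50 after the start, for 26 of the 38 members, 7 of them among the 8 beyond 2-fold. Searched on both strands were TGANTCA (the AP-1 site), TGATGNAA (a composite of ATF4 and C/EBP), GGGCGG (bound by SP and KLF factors) and TATAAA (the TATA box). Of all 27305 promoters in the table, 7.76% hold the first, 3.67% the second, 44.6% the third and 12% the last. Of the 26 member promoters, 2 hold the first (ITGA5 and LAMA3), 1 the second (ITGB5), 14 the third and 1 the last (ITGA6). LAMA3 holds the first at 125 and at 69 bases before its start, and the third at 197. Among the 7 promoters of members beyond 2-fold, 4 hold GGGCGG, including LAMB3 with 1 match at 88 bases before the start and ITGA8 with 4 matches, and none holds the other motifs. ITGA10 has no match to any of them. A match describes the letters in this window only.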

How the data were processed

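RNA was measured in 12 libraries of HOS-MNNG cells. Per the labels and the methods, the authors trimmed the reads with fastp 0.20.1, aligned them with STAR 2.7.5a to hg38 and counted them per RefSeq gene with HTSeq 0.12.4. The libraries were made with a strand-specific mRNA kit. The deposited values are raw counts, and the strand setting of the counting is not given in the sources used here. Entries of the counter without a gene entered neither the totals nor the tests, and were 2.73 to 8.14% (no feature), 2.1 to 2.43% (ambiguous) and 1.86 to 3.37% (not unique) of a library. Here filterByExpr kept 15979 of 43236 genes, counts were scaled by TMM, and the quasi-likelihood test of edgeR 4.0.16 (R 4.3.3) was run in a single model of the 4 groups with Benjamini-Hochberg adjustment over all genes kept, called below 0.05. NXP800 was compared with DMSO within each time, and the 2 responses with each other. The SE of a log2 fold change was derived from this test, as its size divided by the square root of the F statistic. It thus rests on the spread estimated in the model of all 12 libraries, not on the 3 libraries of a group alone. CPM are TMM-scaled counts per 1000000, and RPKM divides them by the union of GENCODE exons. Positions and promoters come from RefSeq, GRCh38.p14. With totals of 30810614 to 31947656 counts, the spread between libraries limits all but low genes. Replicates differed by a chi-square of at least 7.36 per degree of freedom, so none was merged.

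The members and lists were chosen with earlier results of these data known. Every library is given for members beyond 2-fold, called in opposite directions, or among the 2 most abundant of a role, and for each list the 2 largest rises and falls among called genes. A few genes that this rule names are counted but not reported here by name. After removal of group means, libraries of the same replicate number within a time correlated across genes with r of 0.159 to 0.329. Different numbers reached at most 0.058, though removing group means itself lowers these values where those of the same number are positive. The main model holds no replicate term, and only the replicate block, an alternative, takes the numbers as pairs. The replicate numbers come from the labels, and genes are not independent replicates. Alternatives were DESeq2 1.42.0 size factors, its Wald test, library size only, other filters, only the libraries of a time, the replicate block, an adjusted p below 0.01, and each library left out. The procedure was tested on simulated data.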

Additional observations from a re-analysis of the deposited data

Results flagged for a closer look

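For 18 members the response to NXP800 at 24 h differed from that at 6 h in a direct test of the difference (edgeR's quasi-likelihood test, adjusted p below 0.05). On the log2 scale, 24 h minus 6 h, the difference was -2.76 for ITGAM, -1.81 for ITGA8, -1.78 for ITGA10, -1.49 for ITGB8, -1.34 for ITGA2B, -1.14 for LAMA4 and -1.09 for ITGAV. Smaller differences in the same direction were -0.94 for LAMB3, -0.79 for ITGA2, -0.69 for ITGA1, -0.67 for ITGB2, -0.56 for LAMC1, -0.33 for ITGA6 and -0.31 for LAMB1. A response higher at 24 h was found for ITGB3 with 1.24, ITGA11 with 1.15, LAMA3 with 1.14 and LAMA5 with 0.76. The responses of ITGAM, ITGAV and ITGA11 passed the test in opposite directions at the 2 times. The ITGAM value rests on 2 to 27 counts a library.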

How the results depend on the processing

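With 3 libraries a group, the spread between libraries limits what can be called, and for ITGAM, ITGA2B and ITGB8 the counts themselves do. With each library left out in turn, the member calls were 12 to 16 at 6 h, 19 to 25 at 24 h and 14 to 18 in the difference. The replicate block raised the member calls at 6 h from 13 to 21, those lower from 6 to 12, and the basement membrane genes called higher to 6 at 6 h and 4 at 24 h. Over all genes it raised the calls from 8435 to 9953 at 6 h and from 8953 to 10411 at 24 h. In the difference they went from 4129 to 6284. With the block, 28.9% of all genes were higher and 33.4% lower at 6 h, and 32% were higher at 24 h. Blocked values stand beside each named member whose call they changed, and they changed the call of no other member given by name. With only the libraries of the time point, 5 basement membrane genes were higher at 6 h. At an adjusted p below 0.01, 3 members were higher at 24 h in place of 6, and 2 of the other integrin ligands in place of 4. Without DMSO 24 h replicate 2 those ligands also numbered 2, within a range of 2 to 4 over all libraries left out. Other counts stayed within 1.5 times. The share of all genes called was not counted with a library left out, with only the libraries of a time, or below 0.01. Those counts therefore stand without that comparison.

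Signs turned only for values that passed no test: LAMB2 at 6 h (-0.05 to 0.05 with a library left out), ITGA2 at 24 h (0.08 with library size only, 0.01 with only the 24 h libraries, -0.06 to 0.10 with a library left out), ITGA2B at 6 h (-0.35 to 0.16), ITGA5 at 6 h (-0.03 to 0.08), and ITGB4 at 6 h (-0.41 to 0.17) and 24 h (-0.20 to 0.04), each with a library left out. With library size only, the median of all genes moved by 0.09 at 24 h, and the differences of ITGA2B, ITGA6, LAMA4 and LAMB1 no longer passed. With no filter on low counts, the calls of ITGA3 at 6 h and of ITGA4 and ITGA6 at 24 h were lost (adjusted p 0.0732, 0.0862 and 0.123), while ITGA10 and ITGB2 at 6 h and ITGA5 and LAMA5 at 24 h passed (0.000636, 0.0197, 0.0368 and 0.0457). The cause was not tested.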
